A study of Mus musculus with 8 samples.

Results

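The genes described here are Dbx1, Dbx2, Nkx2-3, Msx3, Olig3 and Prdm8, 6 of the 43629 genes listed in the deposited counts and 6 of the 15382 that could be tested. They encode transcription regulators and were grouped under the name of intermediate neural tube domain homeobox and bHLH genes. They were chosen by symbol because their levels had already been seen to differ between the genotypes compared here. Their differences, and the calls counted for them, are therefore a description and support nothing. Dbx1, Dbx2, Nkx2-3 and Msx3 encode homeodomain proteins and Olig3 a basic helix-loop-helix (bHLH) protein. Prdm8 belongs to neither class and encodes a PR domain zinc finger protein.

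RNA was sequenced from the dorsal forebrain of E12.5 male mouse embryos, on a mixed background with C57BL/6J, in 4 control and 4 Sufu-cKO samples. Sufu-cKO embryos carried 1 Emx1-cre allele and floxed Sufu on both chromosomes (Emx1-cre/+;Sufu-fl/fl), and controls were Sufu-fl/fl or Sufu-fl/+. The labels do not say which of the 2 genotypes each control had, whether any control carried cre, or whether samples came from separate embryos or litters, so errors and p-values reflect only how these samples vary, and that variation may be technical. Emx1-cre acts in dorsal telencephalic progenitors and their descendants, so that other cells in the dissected tissue keep Sufu. SUFU binds GLI transcription factors and holds hedgehog signalling in check.

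Total counts ranged from 27514357 to 34878838 per sample. Sufu stood at 105 to 125 CPM (counts scaled to library size) in controls and at 35.9 to 44.8 CPM in Sufu-cKO samples. Emx2, a gene of the dorsal telencephalon, had at least 114 CPM in all 8 samples. One library, Mut_337, stood apart in genes of meninges and other mesenchyme. The 10 genes of that list summed to 1627 CPM there, where the other Sufu-cKO samples had 741 to 783 CPM and controls 939 to 1013 CPM.

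Along the embryonic neural tube, progenitors are divided from dorsal to ventral into bands, each marked by its own transcription factors. Sonic hedgehog from the ventral side and BMP and WNT signals from the dorsal side set these bands, and many of the factors repress one another where bands meet. Dbx1 and Dbx2 mark progenitors midway along this axis in the spinal cord, while Olig3 and Msx3 mark dorsal progenitors. In the telencephalon Dbx1 is known from the ventral pallium and septum, from which it marks the origin of some Cajal-Retzius cells, the reelin-secreting neurons of the cortical surface. Olig3 is known from thalamic progenitors, Nkx2-3 from gut and spleen, and Prdm8 from developing neurons, where it works with the bHLH factor BHLHE22.

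The sequences upstream of Dbx1, Nkx2-3, Olig3 and Msx3 are shown because 3 of these genes were higher and Msx3 was lower in Sufu-cKO. All of these sequences hold a CCAAT box on the strand of the gene or the opposite strand. They were taken from RefSeq promoter windows on GRCm38.p6, in which all 6 genes had an entry, and run 5′ to 3′ on the gene's own strand. Each stops before the first exon base of the GENCODE M21 annotation. Capitals mark a TATA box, a CCAAT box or a near match to the GLI consensus, on either strand. The Dbx1 sequence lies at chr7:49636850-49637085 on the minus strand, that of Nkx2-3 at chr19:43612075-43612324 on the plus strand, that of Olig3 at chr10:19356289-19356532 on the plus strand, and that of Msx3 at chr7:140049090-140049338 on the minus strand.
Dbx1: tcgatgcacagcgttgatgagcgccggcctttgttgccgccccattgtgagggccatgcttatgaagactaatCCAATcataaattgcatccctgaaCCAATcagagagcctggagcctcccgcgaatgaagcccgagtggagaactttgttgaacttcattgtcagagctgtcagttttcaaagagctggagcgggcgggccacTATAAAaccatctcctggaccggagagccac
Nkx2-3: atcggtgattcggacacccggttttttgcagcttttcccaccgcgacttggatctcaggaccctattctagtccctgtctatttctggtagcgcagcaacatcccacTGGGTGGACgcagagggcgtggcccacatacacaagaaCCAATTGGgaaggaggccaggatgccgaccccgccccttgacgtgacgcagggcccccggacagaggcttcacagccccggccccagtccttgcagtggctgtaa
Olig3: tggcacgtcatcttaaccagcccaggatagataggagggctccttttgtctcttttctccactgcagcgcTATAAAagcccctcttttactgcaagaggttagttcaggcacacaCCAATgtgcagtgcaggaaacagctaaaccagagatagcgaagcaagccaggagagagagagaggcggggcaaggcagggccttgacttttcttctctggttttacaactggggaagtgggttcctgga
Msx3: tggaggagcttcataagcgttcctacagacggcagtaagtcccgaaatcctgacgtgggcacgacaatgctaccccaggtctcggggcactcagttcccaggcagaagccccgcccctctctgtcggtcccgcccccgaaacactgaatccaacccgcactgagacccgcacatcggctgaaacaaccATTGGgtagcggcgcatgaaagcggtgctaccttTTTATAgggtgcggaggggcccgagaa

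The 250 bases before the RefSeq start of each of the 6 genes were searched on both strands. The GLI consensus GACCACCCA was found in 0 of the 6 windows and in 0.225% of all 32817 windows of that length. With 1 mismatch allowed it was found upstream of Nkx2-3, as GTCCACCCA on the strand opposite to the gene, 143 to 135 bases before the start, and in 5.80% of all windows. That match differs from the consensus by A2T, counted from 1 at the 5′ end of the consensus. TATAAA was found in 3 of the 6 windows (Dbx1, Olig3 and, on the opposite strand, Msx3) and in 12.4% of all windows. CCAAT was found in 5 of the 6, all but that of Dbx2, and in 33.8% of all windows. In Nkx2-3 a CCAAT match on each strand shares bases with the other. TAAT, the core bound by many homeodomain proteins, was found in 2 of the 6 (Dbx1 and Prdm8) and in 54.9% of all windows. A match of letters is not a shown binding site, and more distant sequence was not searched. The windows of Dbx2 and Prdm8 lie at or inside annotated transcripts and are not shown.

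In these samples Dbx1, Dbx2, Nkx2-3 and Olig3 were higher in all 4 Sufu-cKO samples than in any control, and Msx3 was lower in all 4. Prdm8, the most abundant of the 6 per exon length in controls, differed least, and its groups overlapped. All 6 genes passed the filter on low counts. Called at an adjusted p under 0.05 by edgeR's quasi-likelihood test were 6 of 6, 5 of them higher and 1 lower, where 11.0% of all tested genes were called, 5.34% as higher and 5.64% as lower. For 5 of the 6 genes the ranges of the genotypes were apart, against 16.2% of all tested genes. The median log2 fold change was 3.08 over the 6 genes and 0.01 over all tested genes. Nothing is read from these counts, since the genes were chosen on this comparison. In whole tissue, a change in the number of cells that make a transcript cannot be told apart from a change in the amount per cell.

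**Figure D1:**
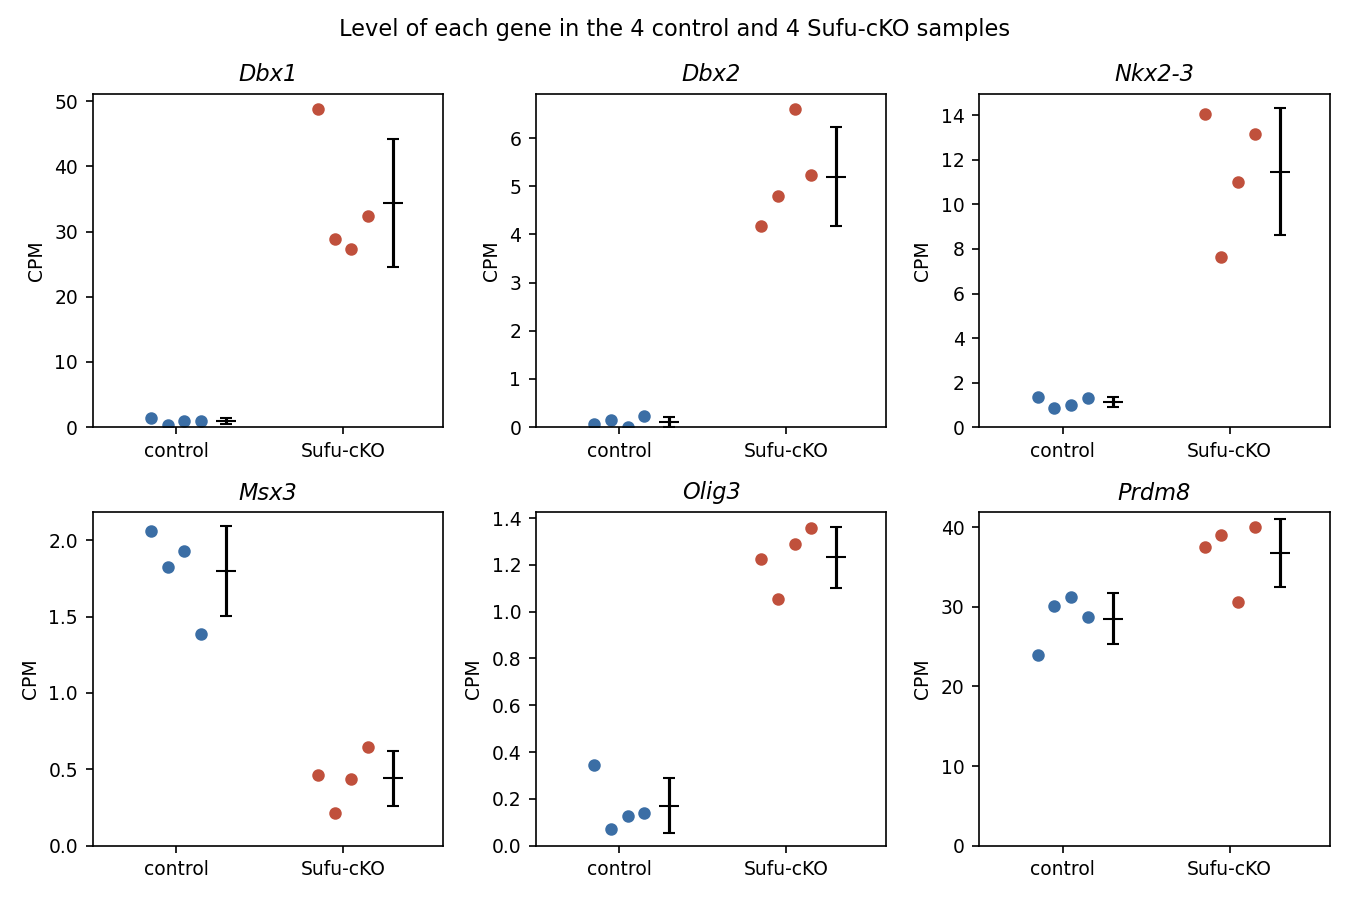
CPM of each gene in the 4 control (blue) and 4 Sufu-cKO (red) samples, 1 point per sample, with the mean and SD beside each group in black. The axes differ between panels and start at 0. Groups are apart in every panel except that of Prdm8.

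Dbx1 (ENSMUSG00000030507, chromosome 7, 49631499 to 49636849, minus strand, GRCm38) encodes a homeodomain repressor that sets the boundary between neighbouring interneuron progenitors. Its level was 1.37, 0.328, 0.979 and 0.932 CPM in Cont_294, Cont_345, Cont_365 and Cont_370, from 9 to 40 counts per library. In Mut_295, Mut_317, Mut_337 and Mut_340 it was 48.8, 28.8, 27.4 and 32.4 CPM. Mut_295 was the highest, and the lowest Sufu-cKO sample stood 19.9-fold above the highest control. Controls averaged 0.903 ± 0.431 CPM and Sufu-cKO samples 34.3 ± 9.85 CPM (SD, n = 4 each), a log2 fold change of 5.23 (SE 0.334) or 37.6-fold. Only 7 of the 15382 tested genes had a larger log2 fold change in the upward direction.

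Dbx2 (ENSMUSG00000045608, chromosome 15, 95623563 to 95655960, minus strand) is the second mammalian Dbx gene and marks a broader band that includes the Dbx1 domain. Controls held 2, 4, 0 and 8 counts, in the order of samples above, or 0.0686, 0.146, 0 and 0.226 CPM. The count of 0 in Cont_365 allows a level of up to 0.0948 CPM, taking 3 counts as the limit and counting error alone. Sufu-cKO samples held 126, 136, 225 and 162 counts, or 4.17, 4.79, 6.59 and 5.23 CPM. All 4 lay above every control, with the lowest 18.5-fold above the highest control, and Mut_337 was the highest.

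The Dbx2 means were 0.110 ± 0.098 and 5.20 ± 1.03 CPM (n = 4 each), a log2 fold change of 5.48 (SE 0.430). With 14 counts over all 4 controls, the size of that fold is set by few reads. It ranged from 5.06 to 6.16 over the alternative analyses, the highest without Cont_370. The order of the Sufu-cKO samples was not shared by the Dbx pair. Mut_295 had the most Dbx1 and the least Dbx2, and Mut_337 had the least Dbx1 and the most Dbx2. Per exon length, the ratio of Dbx1 to Dbx2 was 19.4 in Mut_295, 9.98 in Mut_317, 6.89 in Mut_337 and 10.3 in Mut_340.

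Nkx2-3 (ENSMUSG00000044220, chromosome 19, 43612325 to 43615892, plus strand), a homeobox gene of the NK2 family, had 1.34, 0.839, 1.01 and 1.33 CPM in the controls. In the Sufu-cKO samples it had 14.0, 7.64, 11.0 and 13.1 CPM, with Mut_317 the lowest and Mut_295 the highest, and the groups did not overlap. The means were 1.13 ± 0.246 and 11.5 ± 2.84 CPM (n = 4 each), a log2 fold change of 3.33 (SE 0.226) or 10.1-fold.

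Olig3 (ENSMUSG00000045591, chromosome 10, 19356560 to 19358606, plus strand, a single annotated exon) specifies dorsal interneurons of spinal cord and hindbrain. Per exon length it was the least abundant in Sufu-cKO of the 5 genes that were higher there. Controls held 10, 2, 4 and 5 counts, or 0.343, 0.0729, 0.126 and 0.141 CPM, and Sufu-cKO samples 37, 30, 44 and 42 counts, or 1.22, 1.06, 1.29 and 1.36 CPM. Every Sufu-cKO sample was at least 3.08-fold above Cont_294, the highest control. The means were 0.171 ± 0.118 and 1.23 ± 0.129 CPM (n = 4 each), a log2 fold change of 2.83 (SE 0.361). Without Cont_294 it was 3.37.

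Msx3 (ENSMUSG00000025469, chromosome 7, 140046157 to 140049089, minus strand) is the Msx gene whose expression is known from the dorsal neural tube alone. Controls had 2.06, 1.82, 1.93 and 1.38 CPM, from 49 to 61 counts, and Sufu-cKO samples 0.463, 0.211, 0.440 and 0.646 CPM, from 6 to 20 counts. The lowest control stood 2.14-fold above the highest Sufu-cKO sample, Mut_340. The means were 1.80 ± 0.293 and 0.440 ± 0.178 CPM (n = 4 each), a log2 fold change of -2.01 (SE 0.293), or 4.03-fold lower. Only 18 tested genes had a more negative log2 fold change.

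Prdm8 (ENSMUSG00000035456, chromosome 5, 98180869 to 98187448, plus strand) had 23.9, 30.0, 31.2 and 28.8 CPM in the controls. The Sufu-cKO samples had 37.6, 39.0, 30.6 and 40.1 CPM. Mut_337 lay below the highest control, Cont_365, and the other 3 Sufu-cKO samples lay above all controls. The means were 28.5 ± 3.20 and 36.8 ± 4.26 CPM (n = 4 each), a log2 fold change of 0.37 (SE 0.103) or 1.29-fold. Its call was lost in 9 of 16 alternative analyses, among them limma-voom, scaling by library size alone and 7 of the 8 fits that each leave out 1 sample. A pseudogene on the opposite strand, A730035I17Rik, overlaps Prdm8, with 4 counts in all 8 samples together.

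Per kilobase of annotated exon, the 6 genes changed their order between genotypes. In controls Prdm8 was highest at 5.87 ± 0.659 CPM per kb (SD, n = 4), followed by Msx3 at 0.763 ± 0.124, Nkx2-3 at 0.534 ± 0.116 and Dbx1 at 0.432 ± 0.206. Nkx2-3 and Dbx1 lay within their spread of each other. Olig3 at 0.082 ± 0.057 and Dbx2 at 0.032 ± 0.028 CPM per kb were lowest and also lay within their spread. In Sufu-cKO samples Dbx1 was highest at 16.4 ± 4.71 CPM per kb, followed by Prdm8 at 7.58 ± 0.877 and Nkx2-3 at 5.43 ± 1.35. Dbx2 at 1.498 ± 0.296, Olig3 at 0.594 ± 0.062 and Msx3 at 0.187 ± 0.076 CPM per kb came last. In Sufu-cKO samples Dbx1 lay above 76.8% of the 15284 tested genes with an exon length.

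**Figure D2:**
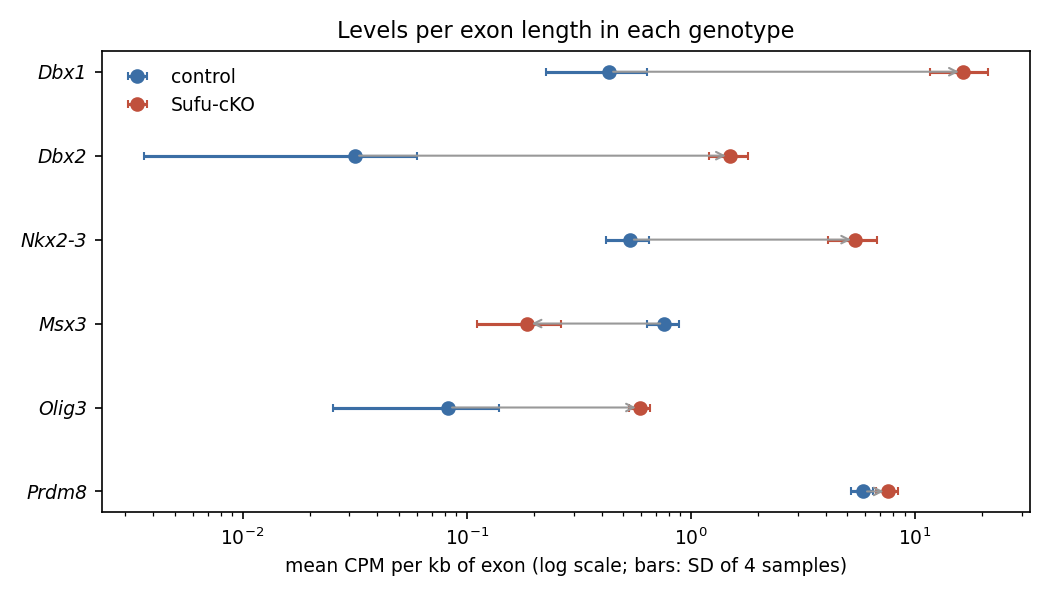
Mean CPM per kilobase of exon for each gene on a log axis, control in blue and Sufu-cKO in red, with arrows from control to Sufu-cKO and bars for the SD of 4 samples (the lower bar is shortened where it would reach 0). Dbx1 passes from 0.432 to 16.4 CPM per kb, and Msx3 is the gene whose arrow points down.

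The spread between samples of a genotype is given beside what counting alone would give. In controls the coefficient of variation of Dbx1 was 47.7%, against 18.8% that counting error alone would give at its mean count. In Sufu-cKO samples it was 28.7%, against 3.08% from counting. Nkx2-3 varied by 24.8% and Dbx2 by 19.8% between Sufu-cKO samples, against 5.30% and 7.85% from counting. Olig3, with few counts, varied by 69.3% between controls and by 10.5% between Sufu-cKO samples, against 43.6% and 16.2% from counting. A spread over 4 samples is itself imprecise.

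Markers of other tissue that a dissection could include were measured in the same libraries. The 12 genes of ventral telencephalon, among them Gsx2, Dlx2 and Gad1, summed to 22.9, 9.30, 43.0 and 105 CPM in the controls and to 190, 30.4, 94.1 and 178 CPM in the Sufu-cKO samples, so that the groups overlapped. Of 9 tested members edgeR called 0, with a median log2 fold change of 1.30. At an unadjusted p under 0.05 there was 1 higher and 1 lower, DESeq2 called Gsx2 higher and Lhx6 lower, and limma-voom called Gsx2 higher. Gsx2 was also called by edgeR without Cont_370 (log2 fold change 4.58, adjusted p = 0.0138). The part of ventral tissue in the levels of the 6 genes was not tested.

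Of 12 diencephalon markers 5 could be tested. Tcf7l2, a WNT effector of the thalamus, rose from 15.1 ± 0.690 to 28.5 ± 4.15 CPM (n = 4 each; adjusted p = 0.000171 by edgeR). Lhx9 fell from 72.4 ± 4.15 to 49.1 ± 4.82 CPM (adjusted p = 0.000548 by edgeR). Irx3, Irx5 and Barhl2 did not pass by edgeR with all 8 samples. Barhl2 was called higher by DESeq2 and by edgeR without Cont_370. Gbx2, a defining gene of the thalamus, was too low to be tested, with 0.058 and 0.096 CPM on average. Foxb1 had 0 to 1 counts per control and 25, 3, 30 and 17 counts in the Sufu-cKO samples. It was too low to be tested with all 8 samples and the filter on low counts, and was called higher in the 6 of 16 alternatives that tested it, which were the fit without a filter and 5 fits with 1 sample left out (edgeR, adjusted p up to 0.0174). The summed level of the list was 84.5 to 96.5 CPM in controls and 79.7 to 96.2 CPM in Sufu-cKO samples.

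None of the 13 midbrain, hindbrain and spinal cord markers could be tested, and 4 were at 0 in all samples. Their sum was at most 0.926 CPM in controls and at most 2.26 CPM in Sufu-cKO samples. The highest value came from Mut_337, with 53 counts of En1, which had 0 to 1 counts in every other sample. Without Mut_337 the log2 fold changes were 5.32 for Dbx1, 5.33 for Dbx2, 3.34 for Nkx2-3, -2.02 for Msx3, 2.79 for Olig3 and 0.44 for Prdm8. Choroid plexus markers summed to 537 to 819 CPM in controls and to 96.9 to 299 CPM in Sufu-cKO samples, with 6 of 10 called lower and 0 higher. Only 3 were called lower without Cont_294, without Cont_345 or without Cont_365, where Kcne2, Slc4a5 and Sostdc1 lost their calls. Over all fits with 1 sample left out the number was 3 to 8. Folr1, Htr2c and Calml4 kept their calls in all 16 alternatives. DESeq2 called 9 lower, limma-voom 8 and edgeR without the filter on low counts 4. The part of choroid plexus in the lower Msx3 level was not tested.

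Of 5 markers of the antihem, the signalling zone at the edge of the ventral pallium, 1 rose, 1 fell and 3 did not pass. The growth factor gene Tgfa rose from 5.85 ± 0.411 to 7.89 ± 0.246 CPM (n = 4 each; adjusted p = 0.0277 by edgeR), and Nrg1, another EGF family ligand, fell from 11.8 ± 1.10 to 6.34 ± 0.859 CPM (adjusted p = 0.000772 by edgeR). Sfrp2, a secreted WNT antagonist known from this zone, had 29.8 and 26.0 CPM on average and did not pass. Fgf7, at 0.684 and 1.69 CPM on average, and Nrg3, at 4.72 and 3.84 CPM, did not pass either. Without Cont_370 Fgf7 was called higher (adjusted p = 0.0269 by edgeR). Without Mut_337 Sfrp2 was called lower (adjusted p = 0.0375 by edgeR). Tgfa lost its call in 5 of the 8 leave-one-out fits (by edgeR, adjusted p up to 0.0864).

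Of 10 Cajal-Retzius cell markers, Ndnf rose from 2.74 ± 0.846 to 10.3 ± 4.11 CPM (n = 4 each; adjusted p = 0.00741 by edgeR) and Reln fell from 142 ± 12.7 to 108 ± 14.3 CPM (adjusted p = 0.0181 by edgeR). The other 8 did not pass by edgeR with all 8 samples, and the median of the list was 0.03 on the log2 scale. Calb2, at a log2 fold change of 0.91, was called higher by DESeq2 and by edgeR without robust estimation. It was also called higher by edgeR without Cont_370 and without Mut_317. Nhlh2 was called higher by edgeR without Mut_295. Leaving out Cont_345 ended the call of Reln (adjusted p = 0.0598 by edgeR).

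Other factors of the neural tube bands were compared from lists of their own, which were also drawn up with earlier results of these samples known. Of 13 dorsal domain factors 9 were tested, and 2 rose, 1 fell and 6 did not pass (median log2 fold change -0.02). With 1 sample left out, 1 to 3 rose and 1 to 3 fell. The proneural gene Neurog1 rose from 14.9 ± 1.62 to 25.7 ± 3 CPM (n = 4 each; adjusted p = 0.000528 by edgeR). Neurog2 fell from 212 ± 20.8 to 152 ± 14.99 CPM (adjusted p = 0.0033 by edgeR). Among the dorsal factors that did not pass, Lmx1a stood at a log2 fold change of -0.50, Pax7 at -1.30 and Pax3 at 0.04.

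Of 6 intermediate domain factors beside the Dbx genes 5 were tested. Pax6, which spans the intermediate bands of the spinal cord and the dorsal telencephalon, rose from 238 ± 17.9 to 347 ± 19.2 CPM (n = 4 each; adjusted p = 0.000233 by edgeR). Irx3, Irx5, Prdm12 and Bhlhe22 did not pass, with log2 fold changes between -0.29 and 0.71. Nkx6-2, a homeobox gene of bands beside and below the Dbx1 domain, was too low to be tested. It had 0 to 1 counts per control and 11, 0, 16 and 4 counts in Mut_295, Mut_317, Mut_337 and Mut_340. Without the filter on low counts it was called higher (adjusted p = 0.0184 by edgeR).

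Of 11 ventral domain factors 3 were tested. The bHLH genes Olig2 (3.65, SE 0.373; edgeR, adjusted p = 0.000548) and Olig1 (3.21, SE 0.369; edgeR, adjusted p = 0.000164) rose on the log2 scale. Nkx2-2, Nkx2-9, Nkx6-1, Foxa1, Foxa2, Foxn4 and Ferd3l, which include the defining factors of the most ventral bands, were too low to be tested.

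Of 26 factors of spinal interneurons and motor neurons, 8 were tested, and edgeR called 0 higher and 1 lower (1 each at an unadjusted p under 0.05, and 0 higher and 1 lower by limma-voom). DESeq2 called Barhl2 higher and 1 gene lower. The gene that fell in the edgeR fit was Lhx9, which is also made in the cortical primordium. Isl1 stood at 2.07 (SE 0.979) and Barhl2 at 0.92 (SE 0.310), and neither passed by edgeR with all 8 samples. Without Cont_370 edgeR called Barhl2 higher (adjusted p = 0.0128). Barhl1, with 0 to 1 counts per control and 2 to 7 per Sufu-cKO sample, was too low to be tested. Without the filter on low counts Barhl1 was called higher (adjusted p = 0.0150 by edgeR). Evx1 and Evx2, which mark the interneurons born from Dbx1 progenitors of the spinal cord, were too low to be tested, at 0.060 and 0 CPM on average in control and 0 and 0.009 CPM in Sufu-cKO.

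**Figure D3:**
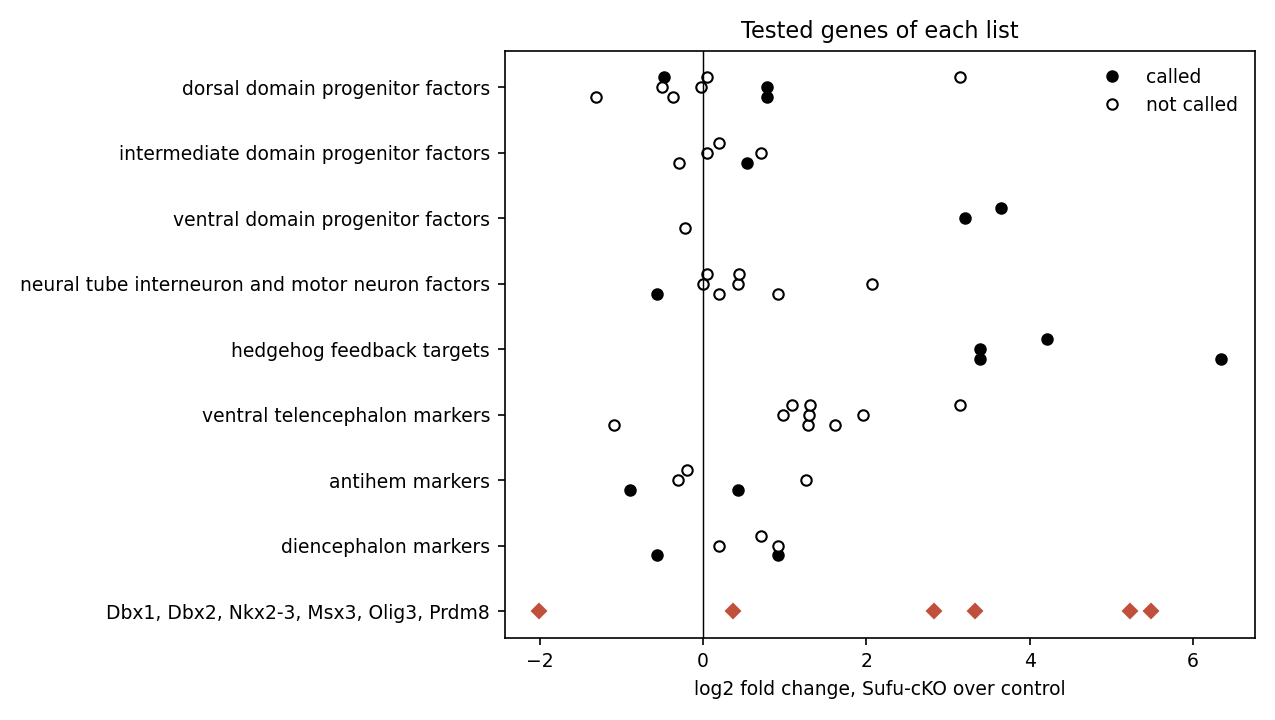
Log2 fold change of Sufu-cKO over control for each tested gene of 8 lists (filled circles called by edgeR at an adjusted p under 0.05, open circles not called), with the 6 genes of the account as red diamonds in the bottom row. All 4 hedgehog feedback targets are filled and to the right of 3, and 0 of the ventral telencephalon markers is filled.

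Hedgehog feedback genes were measured in the same libraries. All 4 listed were called higher, with Hhip at a log2 fold change of 6.34 (SE 0.231), Gli1 at 4.21 and Ptch1 at 3.39 (edgeR, adjusted p from 3.45e-08 to 5.46e-06, n = 4 each). The log2 fold changes of Dbx1 and Dbx2 lay between those of Hhip and Gli1. That of Nkx2-3 (3.33, SE 0.226) lay within its SE of Ptch1. Whether any of the 6 genes responds to the pathway was not tested.

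The relatives of Msx3, Olig3 and Prdm8 in their gene families did not share 1 pattern. Of the Msx genes, Msx1 had 18.4 ± 1.34 and 14.2 ± 4.68 CPM and Msx2 5.02 ± 0.956 and 4.93 ± 5.17 CPM (n = 4 each), and neither was called. Both were highest in Mut_337 among the Sufu-cKO samples, where Msx2 had 12.6 CPM against 1.55 to 3.03 CPM in the other 3. Without Mut_337 both were called lower, at log2 fold changes of -0.63 for Msx1 (adjusted p = 0.00561 by edgeR) and -1.10 for Msx2 (adjusted p = 0.0142 by edgeR). Msx3 in Mut_337, at 0.440 CPM, lay between the other Sufu-cKO samples.

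Olig1 and Olig2 rose, as given above, and Bhlhe22, which encodes a partner of PRDM8, had 63.4 ± 6.76 and 51.9 ± 10.1 CPM (n = 4 each) and was not called. Of 12 tested Prdm relatives 1 was called, Prdm16, a regulator of radial glia, which fell from 78.0 ± 3.62 to 60.5 ± 5.93 CPM (adjusted p = 0.00747 by edgeR). The others lay between -0.20 for Prdm1 and 0.10 for Prdm10 on the log2 scale, and the median of the list was -0.01. Among the Nkx2 and Nkx6 relatives, 9 of 9 were too low to be tested, and Nkx2-5, Nkx2-6 and Nkx2-9 were at 0 in all samples. Nkx2-1 had 96 counts in Cont_365 and 0 to 14 in each other sample.

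**Figure D4:**
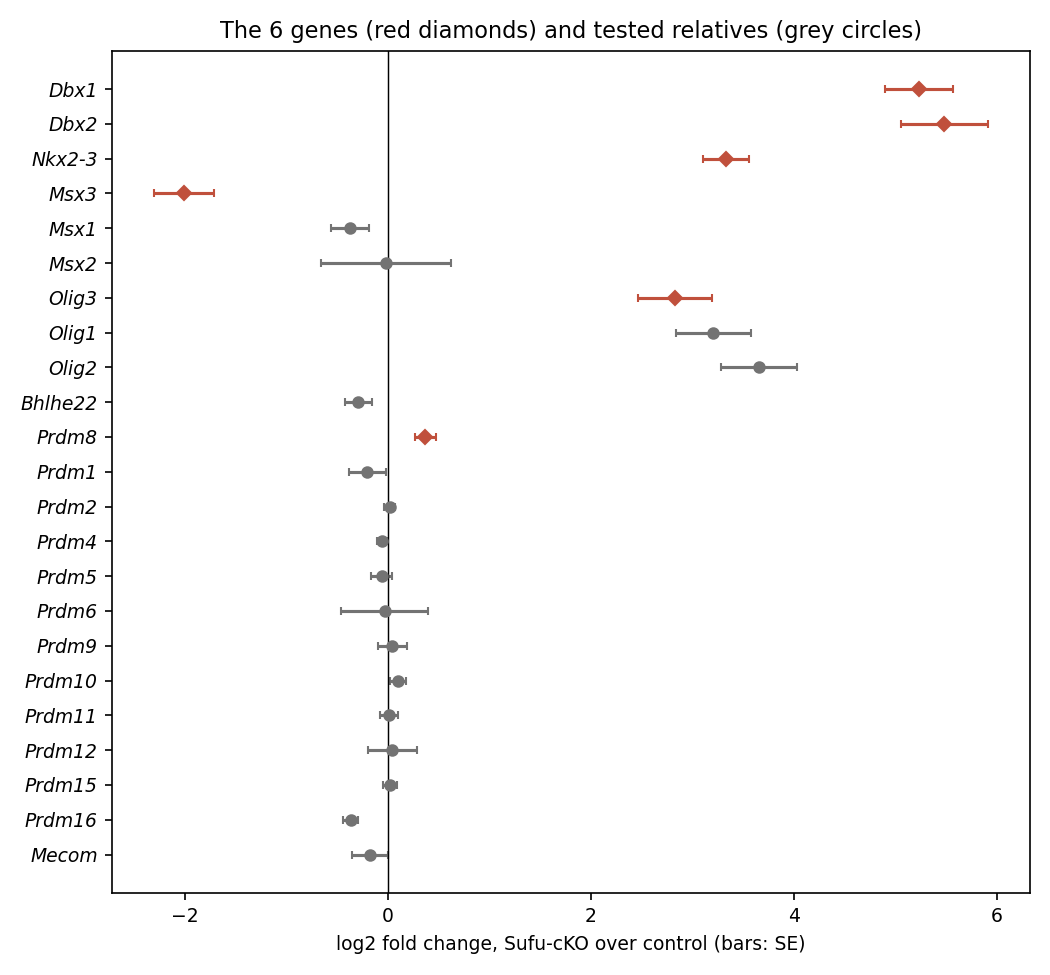
Log2 fold change of Sufu-cKO over control with its SE for the 6 genes (red diamonds) and their tested family relatives (grey circles), each gene followed by its relatives. Most Prdm relatives lie near 0, Olig1 and Olig2 lie beside Olig3, and Msx2 has the widest bar.

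The genes next to each of the 6 on the chromosome were followed as well. Of 12 adjacent genes in the authors' table, 6 could be tested, and 1 was called. This was Gm20467, a long intergenic noncoding RNA on the minus strand (chromosome 19, 43609077 to 43610625), which begins 1700 bases before Nkx2-3 and is read in the opposite direction. Gm20467 rose from 1.02 ± 0.216 to 2.76 ± 0.285 CPM (n = 4 each; log2 fold change 1.43, SE 0.200; edgeR, adjusted p = 0.000657), with no overlap between the groups. The neighbours of Msx3, Zfp511 at 5552 bases and Caly at 20791 bases, did not pass, nor did Htatip2 beside Dbx1 or Tnfaip3 and Ifngr1 on either side of Olig3.

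Genes with the most similar profile were sought by the root mean square difference in log2 CPM over the 8 samples, after subtracting each gene's control mean. This search used the same samples and is a description. Near Nkx2-3 were Ptch1 (0.30) and Olig2 (0.33). Nearest to Msx3 were Vcam1 (0.27), Mpped2 (0.30) and Ndrg2 (0.33). Dbx1 and Dbx2 had no close match, with Mobp (0.71), Hhip (0.75) and Fgf15 (0.94) nearest to Dbx1 and Gli1 (0.89), Fgf15 (0.91) and Spon1 (0.93) nearest to Dbx2. Olig3 was nearest to 1700101E01Rik (0.38), Ankfn1 (0.39) and Megf11 (0.40), and Prdm8 to Grin1 (0.07), Ctnnd2 (0.08) and D430041D05Rik (0.08). The prior count of 2 in these log2 values draws genes of few counts, such as Dbx2 and Olig3, towards smaller differences.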

How the data were processed

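Dorsal forebrain RNA was profiled with a stranded mRNA library kit, per the labels' protocols, and STAR 2.4.2a and GRCm38 are named in the submitters' processing notes. Which program counted reads, and whether it used strand, is not stated there. The deposited tables hold raw counts of 8 samples per gene, and symbols, positions and, made by the authors, a normalised signal (the count divided by 1 size factor per sample) and a fold change ratio. That signal and ratio served only for checks, and 1 gene ID turned into a spreadsheet formula was restored. All sample columns were matched, so 0 were left over.

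The members and all gene lists were chosen with earlier results of these data known. Groups came from the sample titles and genotype labels. Counts were analysed with R 4.3.3 and edgeR 4.0.16: filterByExpr (minimum count 10, minimum total 15) kept 15382 of 25299 genes with any count, TMM factors scaled libraries, and the robust quasi-likelihood F-test, 2-sided, compared the genotypes, with Benjamini-Hochberg adjustment over all tested genes and calls at 0.05. SE was back-calculated from the F statistic. CPM used TMM factors, exon lengths GENCODE M21. Named were the 6 members, called list members or else abundant ones, family relatives, adjacent genes and the 3 most similar genes of at least 1 CPM. Other list genes named were chosen after their values were seen. DESeq2 1.42.0 and limma 3.58.1 (voom) were alternatives. The test was checked on simulated counts that had the same dispersion for every gene. That check does not cover genes that vary more between samples, such as Dbx1, Dbx2 and Olig3 in controls. A few genes covered by these rules are left unnamed but remain in the counts.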

Additional observations from a re-analysis of the deposited data

How the results depend on the processing

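Over 16 alternative settings for each of the 6 genes, 95 of 96 log2 fold changes moved by less than the spread between samples, 1 moved by more (Olig3 without Cont_294, at 3.37) and 0 reversed. Dbx1, Dbx2, Nkx2-3, Msx3 and Olig3 kept their calls in all 16, and Prdm8 in 7. The number of genes called, 1689, ranged from 1603 to 2119 under other scalings, filters and tools, and from 1079 to 1836 with 1 sample left out, with 537 to 939 higher and 542 to 897 lower. The lowest values came without Cont_345, where the cause was not tested. Of the 137 distinct genes on the lists, 24 were called, and 24 to 34 under other settings or 19 to 32 with 1 sample left out. Without Mut_337, 32 were called. Without filtering, 25299 genes were tested. The share of called genes that were higher was 48.7% with TMM and 44.4% to 48.4% under other scalings. No paired analysis was possible because the sample numbers in the titles are not shared between the genotypes. Depth limits Dbx2 and Olig3 in controls, with 14 and 21 counts over 4 samples, and Msx3 in Sufu-cKO, with 55. In each genotype of each of the 6 genes, no sample stood apart by the Dixon criterion (0 of 12 groups). With 4 samples per group its critical value is 0.829, so only an extreme sample could be flagged.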
